A study of Drosophila melanogaster with 3 samples.

Results

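The Wingless pathway genes of Drosophila melanogaster examined here were the 10 genes wg, arr, fz, fz2, dsh, arm, Axn, Apc, pan and nkd, out of 13945 protein-coding genes in the annotation. They were listed by name for their place in the pathway, by a rule that uses no measured value, although the list was drawn up with earlier results of these data known. The measurements were binding sites of the zinc finger protein D19A, obtained by chromatin immunoprecipitation and sequencing (ChIP-seq), in which DNA bound to a protein is recovered with an antibody and sequenced. There was 1 group, made of whole embryos aged 0 to 20 h, male and female pooled, from a transgenic line that stably carries D19A with GFP fused to its C-terminus, and all 3 biological replicates carry that fusion. Per the labels the fusion protein was precipitated with an antibody against GFP, while the antibody field names D19A. Since whole embryos over the whole of this age range were pooled, a site cannot be assigned to a tissue or a stage. No group without the fusion was compared, so every value below describes the line that carries it.

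Wingless is a secreted Wnt protein. It binds the Frizzled receptors, encoded by fz and fz2, together with the co-receptor Arrow, encoded by arr, and the signal passes inside the cell to the scaffold protein Dishevelled, encoded by dsh. Without the signal, a destruction complex that contains Axin (Axn) and the APC protein (Apc) marks Armadillo, the fly β-catenin encoded by arm, for degradation. With the signal, Armadillo accumulates and acts in the nucleus with the DNA-binding protein Pangolin (pan), the fly TCF, and Naked cuticle (nkd) is a feedback inhibitor that acts on Dishevelled. In the embryo the pathway is best known for patterning the epidermis within each segment.

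Peaks of the authors' optimal list from the irreproducible discovery rate (IDR) procedure, a method built on how peak ranks repeat between replicates, were placed by their summits. That list consisted of the pooled peaks of highest signal, and the ranks of single peaks in it can still differ widely between replicates. In that list, 69 peaks had a summit inside 1 of the 10 genes or within 5 kb of it, a stretch called the gene's window here, and the other 7700 lay elsewhere. Rank 1 is the peak with the highest deposited signal value, and signal was used only to order peaks within a list. Sequencing depth is unknown, as the files hold peaks without read counts, and the intervals given below cover counting error only.

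Sequences under 10 summits are printed, the first 5 because they are the strongest or second strongest sites of their genes. Each is the plus strand, 5′ to 3′, of a summit and the 50 bp on either side, taken from the RefSeq genome of the dm6 build, with runs of at least 8 A or T bases in capitals. The strongest IDR peaks of fz (chr3L:14304017-14304117, intron), fz2 (chr3L:19163067-19163167, intron) and nkd (chr3L:19045602-19045702, promoter) ranked 600, 1345 and 546. A further nkd site (chr3L:19042624-19042724, intron) ranked 775, and the strongest in the Apc window (chr3R:28847302-28847402, intron of spg) ranked 808.
nkd rank 546: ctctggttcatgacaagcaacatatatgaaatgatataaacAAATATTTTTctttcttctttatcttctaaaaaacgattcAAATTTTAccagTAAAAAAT
fz rank 600: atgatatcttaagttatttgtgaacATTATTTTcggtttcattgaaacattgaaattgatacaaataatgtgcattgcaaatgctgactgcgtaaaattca
nkd rank 775: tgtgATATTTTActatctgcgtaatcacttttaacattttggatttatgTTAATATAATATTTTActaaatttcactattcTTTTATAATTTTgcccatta
Apc rank 808: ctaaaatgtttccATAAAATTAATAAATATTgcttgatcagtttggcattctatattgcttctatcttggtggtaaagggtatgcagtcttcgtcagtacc
fz2 rank 1345: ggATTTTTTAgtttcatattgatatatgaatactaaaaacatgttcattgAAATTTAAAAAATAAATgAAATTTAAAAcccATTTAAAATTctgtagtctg

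The next 5 are shown because they set an IDR summit poor in A and T, and weak IDR peaks, beside promoter summits that did not reach the IDR list. The nkd peak ranked 3090 (chr3L:19043639-19043739, intron 1) was 49.5% A or T. The IDR peaks of wg lay upstream of the gene (chr2L:7302824-7302924, rank 6465) and in its intron 3 (chr2L:7313547-7313647, rank 6424). The summits at the wg promoter (chr2L:7307004-7307104) and at an arm promoter (chrX:1899619-1899719) were in the pooled list only, at ranks 11178 and 10615.
nkd rank 3090: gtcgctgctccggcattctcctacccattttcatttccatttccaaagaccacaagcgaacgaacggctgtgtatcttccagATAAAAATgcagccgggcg
wg rank 6465: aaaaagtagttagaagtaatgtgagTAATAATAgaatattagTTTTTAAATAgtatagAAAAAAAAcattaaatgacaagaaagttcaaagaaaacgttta
wg rank 6424: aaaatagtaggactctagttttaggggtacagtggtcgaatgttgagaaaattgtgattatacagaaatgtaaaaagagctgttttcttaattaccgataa
wg promoter, pooled rank 11178: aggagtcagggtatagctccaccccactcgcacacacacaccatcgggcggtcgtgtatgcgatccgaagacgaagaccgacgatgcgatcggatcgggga
arm promoter, pooled rank 10615: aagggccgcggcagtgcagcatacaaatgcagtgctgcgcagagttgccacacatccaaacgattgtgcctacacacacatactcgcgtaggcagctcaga
The upstream wg site was 80.2% A or T with 3 such runs, while the intronic site was 68.3% A or T and had none. The windows at the wg and arm promoters were 39.6% and 44.6% A or T and had none. They were at the low end of the promoter summits outside the IDR list. Those of the other pathway genes ran from 49.5% (fz, pooled rank 8381) to 75.2% (pan, pooled rank 23810). All pooled summits outside the IDR list averaged 62.1%. The windows of all 69 IDR summits ran from 44.6% to 83.2%.

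D19A sites were present at most of these genes, and the longest genes held most of them. An IDR summit lay in the window of 8 of the 10 genes, all except arm and Axn, against 7256 of 13945 protein-coding genes (52%). Within 250 bp of a transcription start site (TSS) of the gene, called its promoter here, a summit was present at 5 of the 10, namely arr, fz2, Apc, pan and nkd, against 15.3% of protein-coding genes. A gene with several TSSs has more chances of such a summit, and fz2, pan and Apc have 3, 4 and 2. Neither this share nor the promoter shares below were compared at matched number of TSSs. When the count was repeated on the strongest peaks of each replicate list, as many as the IDR list holds and called its top list here, 8, 9 and 8 of the 10 genes had a summit in the window (8.33 ± 0.577, SD, n = 3), and 6, 3 and 5 had one at a promoter (4.67 ± 1.53). Neither arm nor wg had a top-list summit in replicate 1, arm had none in replicate 2, and arm and Axn had none in replicate 3. Promoter summits were at arr, fz2 and nkd in every replicate, at Apc and pan in replicates 1 and 3, and at fz in replicate 1 only. A top-list peak that the 3 replicates share lay in the windows of 7 genes, all except wg, arm and Axn, against 42.4% of protein-coding genes.

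Longer windows hold more summits by their length alone, so each gene was read beside genes of like window length. In windows of 60 kb and over, 2 of 2 pathway genes (fz and fz2) had an IDR summit, against 76.2% of 307 genes. For 30 to 60 kb it was 3 of 3 (arr, pan and nkd), against 76.3% of 706 genes. For 15 to 30 kb it was 2 of 4 (wg and Apc, not arm or Axn), against 66% of 2471 genes, and the short window of dsh, under 15 kb, had 1, as did 46.4% of 10461 genes. Read this way, having at least 1 summit set none of the length groups far from its background. The number of summits was higher for fz, with 19, which 10 of the 307 genes of its length group reached, itself included, where the median was 4. The counts of fz2 (17), nkd (10) and arr (9) were reached by 16 of 307, 27 of 706 and 35 of 706 genes, and the median of the group of nkd and arr was 2. The arr count includes 2 summits beside the neighbour cnn, and 7 lay inside arr. The genes pan (7), Apc (4) and wg (2) stood nearer to their groups, as 79 of 706, 340 of 2471 and 1030 of 2471 genes had at least as many. For scale, the protein-coding genes with the most IDR summits in the genome were kirre, a myoblast fusion receptor gene, with 31 in a 404 kb window, jing, a zinc finger gene, with 24 in 130 kb, and rdx, a gene of Hedgehog signalling, with 23 in 75 kb.

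**Figure D1:**
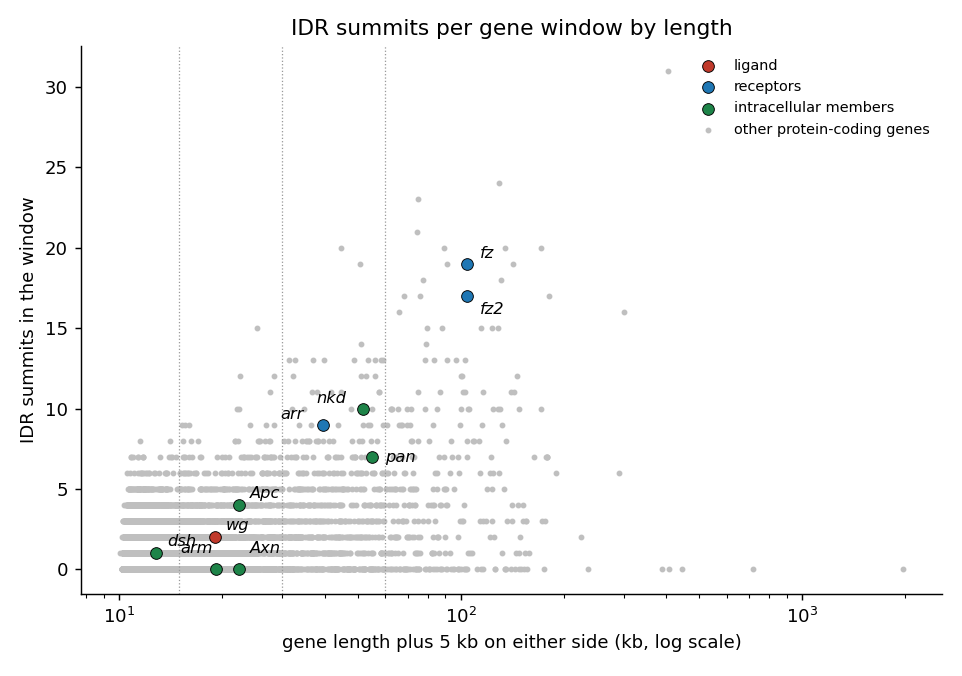
IDR summits per gene window (vertical axis) against the length of the gene plus 5 kb on either side (horizontal axis, kb, log scale), 1 point per protein-coding gene, with the ligand, receptors and intracellular members coloured and dotted lines at 15, 30 and 60 kb. The receptor genes fz (19) and fz2 (17) lie near the top of the genes of about 104 kb, and arm and Axn lie at 0.

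Across all 10 windows, 451 kb in total, the density was 153 IDR summits per Mb (exact 95% Poisson interval 119 to 194), against 63.5 per Mb in the windows of all protein-coding genes together (62 to 65). The top lists of the replicates held 66, 66 and 60 summits in the pathway windows, or 142 ± 7.68 per Mb (SD, n = 3), against 63.6 ± 0.253 for all protein-coding windows. This difference is larger than the spread between replicates. Each top list holds the same number of peaks, so that spread shows only how far calling repeats. It does not show how density varies between sets of genes. The genes fz (19), fz2 (17) and nkd (10) held most of the summits, and density was not compared at matched window length. The share of pooled summits that reached the IDR list was close to that of the genome, at 26.8% of the 257 pooled summits in the pathway windows and 25.9% of the pooled list.

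By role, the 3 receptor genes held 45 IDR summits in 248 kb, or 181 per Mb (132 to 243), the 6 intracellular genes 22 in 184 kb, or 120 per Mb (75.1 to 181), and the ligand gene 2 in 19.1 kb, or 105 per Mb (12.7 to 378). The top lists gave 39, 44 and 31 summits at the receptors (153 ± 26.4 per Mb, SD, n = 3), 27, 20 and 27 at the intracellular genes (134 ± 22) and 0, 2 and 2 at the ligand (69.8 ± 60.4). In replicates 1, 2 and 3 this was 157, 177 and 125 per Mb at the receptors, 147, 109 and 147 at the intracellular genes and 0, 105 and 105 at the ligand. Receptors and intracellular genes differed by less than their SDs, and their order changed in replicate 3. The ligand gene was lowest in each replicate, but its value rests on at most 2 summits, and the Poisson intervals of the roles overlap. The strongest 25% of the IDR list held 5 of the 45 receptor peaks (11.1%), 7 of the 22 intracellular peaks (31.8%) and neither of the 2 ligand peaks. Of the 7 strong intracellular peaks, nkd held 5. The others lay in introns of the neighbours CG1737 (rank 1604, dsh window) and spg (rank 808, Apc window). Among the strong receptor peaks, those ranked 872 and 1000 in the arr window lay beside a TSS of the neighbour cnn. These shares therefore describe windows, not sites that belong to the pathway genes alone.

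**Figure D2:**
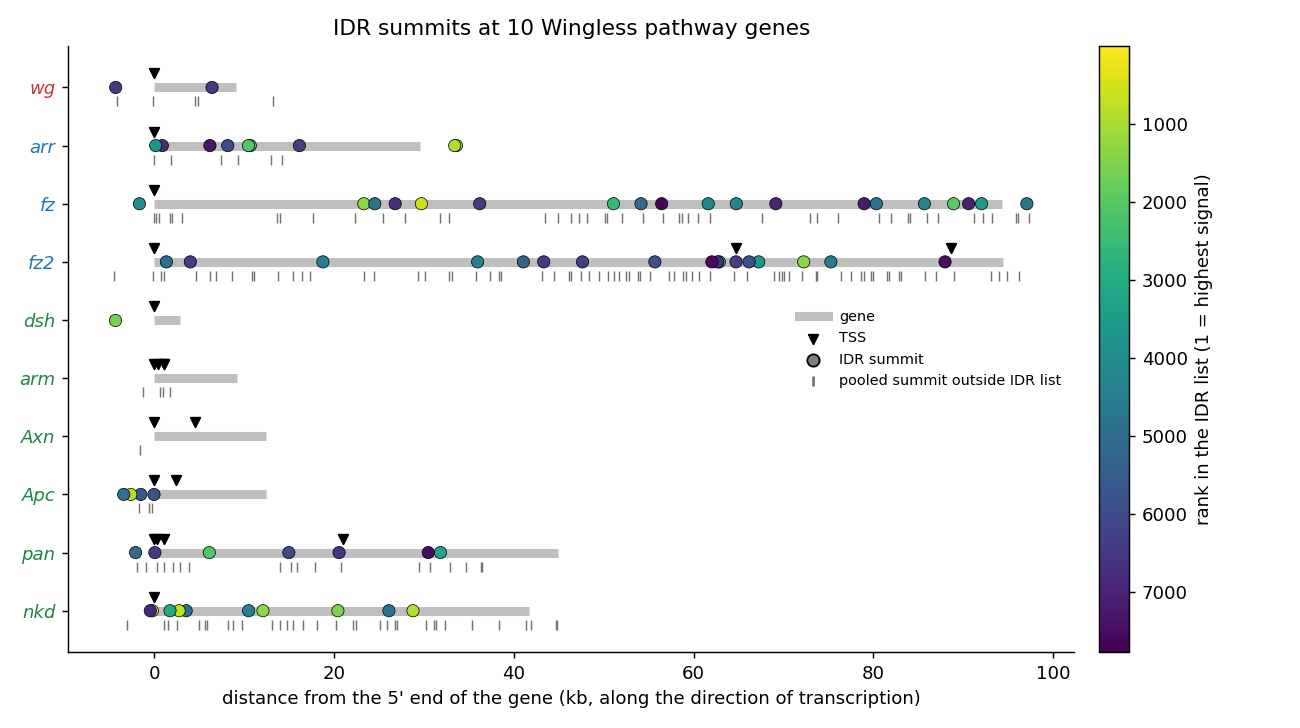
Position of D19A summits along the 10 genes (horizontal axis, kb from the 5′ end of each gene in the direction of transcription). Grey bars are genes, triangles TSSs, circles IDR summits coloured by rank and ticks pooled summits outside the IDR list. The summits of fz and fz2 are spread over about 94 kb of gene, and arm and Axn have ticks only.

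The ligand gene wg, on chromosome arm 2L (7307159 to 7316265, plus strand), had no strong site. Its IDR peaks ranked 6465, 4285 bp upstream of its TSS, and 6424, 6438 bp downstream of it. In replicates 1, 2 and 3 the upstream peak ranked 8187, 5958 and 6905, and the intronic peak 9133, 6206 and 7194. Both were therefore weaker in replicate 1, where neither was in the top list. The summit 105 bp upstream of the wg TSS, outside the IDR list, ranked 9344 and 11368 in replicates 1 and 2 but 27861 in replicate 3.

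Of the receptor genes, arr lies on 2R (13453640 to 13483229, minus strand) and had 9 IDR summits, 7 of them inside the gene. Its promoter peak, with the summit 170 bp downstream of the TSS, ranked 3709, and 3220, 4085 and 4058 in the replicates, a narrow range. The strongest peaks in the arr window, ranked 872 and 1000, belong by position to the next gene, cnn, which encodes the centrosome protein Centrosomin. They lay 204 and 403 bp from a cnn TSS and 33625 and 33426 bp from that of arr. The replicate peak that overlaps both ranked 1083, 830 and 829. Inside arr, the peaks ranked 2081 and 2115 lay next to each other in the 22.2 kb intron 2, over 10 kb from the arr TSS. Both were matched by the same replicate peak, ranked 2497, 1940 and 1859. Intron 2 held 5 of the summits of arr and intron 1 held 2. The remaining peaks of the gene ranked between 6037 and 7337, and the TSS nearest to several of them was that of CG43192.

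The gene fz, on 3L (14274343 to 14368639, plus strand), carried the largest number of IDR summits of the 10 genes, with 17 inside it, 1 upstream and 1 downstream. They gathered in its long introns, with 12 in the 49.4 kb intron 4, 4 in the 29.2 kb intron 1 and 1 in intron 2. The strongest, near the 3′ end of intron 1 and 29724 bp from the TSS, ranked 600, and 580, 543 and 877 in the replicates, whose summits lay within 1 bp of the IDR summit. Peaks ranked 1354 (1365, 1304 and 1542 in the replicates) and 1949 (2152, 1874 and 2115) followed, in introns 1 and 4. Of the 19, only 3 were nearest to the fz TSS, since lncRNA:CR45025, CG13482 and CG13481 have TSSs inside the gene or beside it. The fz promoter had no IDR summit. A pooled summit 66 bp from the TSS ranked 8381, just beyond the end of the IDR list, and ranked 6348, 9010 and 9168 in the replicates.

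The other Frizzled gene, fz2, lies on 3L as well (19140975 to 19235373, minus strand), and all of its 17 IDR summits were inside it. Its strongest peak, in an intron 7531 bp from the nearest fz2 TSS, ranked 1345, and 1512, 1216 and 1401 in the replicates. The remaining 16 ranked from 3148 to 7573. A summit 4 bp from 1 of the internal TSSs of fz2 ranked 6343, and 6731, 6577 and 5216 in the replicates. Its window was 44.6% A or T, the lowest of all 69. Of the 17 summits, 10 were nearest to a TSS of fz2 and the rest to those of lncRNA:CR45941 or lncRNA:CR43893. The windows of fz and fz2 thus have almost the same length, 104 kb each, and similar counts, but fz held the stronger leading peak in every replicate (580, 543 and 877, against 1512, 1216 and 1401 for fz2).

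Among the intracellular genes, the short gene dsh (X, 11355881 to 11358724, plus strand) had 1 IDR summit in its window, 4344 bp upstream of its TSS. It ranked 1604, and 1709, 1432 and 2347 in the replicates. This summit lies in an intron of the neighbour CG1737, 929 bp from the TSS of that gene, and the pooled list held no other summit in the dsh window.

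No IDR summit lay near arm (X, 1891401 to 1900646, minus strand) or Axn (3R, 30022842 to 30035311, plus strand), and both had weaker sites. At arm the best of 4 pooled summits lay 59 bp from a TSS and ranked 10615, and 13160, 7959 and 10217 in the replicates. Another, at rank 12759, lay 3 bp from the TSS of the neighbour Ldaf1. The pooled summit of Axn ranked 8467, 1524 bp upstream of the gene in an intron of Mgat2, and 11710, 7637 and 14835 in the replicates. Replicates 1 and 2 also had a peak 775 and 701 bp upstream of the Axn TSS, at ranks 4395 and 4690, within their top lists. The pooled list and replicate 3, whose best peak in the Axn window ranked 14835, had none there. Counting every pooled peak, all 10 genes had a summit in the window and 8 had one at a promoter, all except dsh and Axn, against 67.6% and 31% of protein-coding genes.

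Apc, on 3R (28832301 to 28844748, minus strand), had 4 IDR summits, all upstream of its first TSS. The summit 24 bp upstream of the TSS ranked 5798, and 7024, 7902 and 3752 in the replicates, so that it fell outside the top list of replicate 2. The other 3 lay in introns of the neighbour spg, which encodes Sponge, a guanine nucleotide exchange factor of the DOCK family. The strongest of them ranked 808, and 659, 1227 and 564 in the replicates, 2052 bp from a TSS of spg and 2604 bp from that of Apc. Its sequence, printed above with its rank, holds 1 run of 18 A or T bases.

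The gene pan, on chromosome 4 (69326 to 114270, plus strand), had 7 IDR summits. Its promoter summit, 74 bp downstream of a TSS, ranked 6488, and 6075, 8438 and 5768 in the replicates. Upstream, a summit 50 bp from the TSS of the ribosomal protein gene RpS3A and 2069 bp from that of pan ranked 5040. The strongest, in an intron of pan, ranked 2110, and 1829, 3220 and 1312 in the replicates. Of the 7, 5 ranked weakest in replicate 2, and 4 were in its top list, against 7 and 6 in those of replicates 1 and 3. The 50 bp on either side of the summits ranked 2110 and 3164 overlap annotated transposable elements, and these were the only 2 of the 69 (2.9%), against 1.6% of the other IDR peaks.

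Of the 10 genes, nkd (3L, 19003741 to 19045449, minus strand) had the strongest IDR peak, and its sites repeated well. Its promoter peak, 203 bp upstream of the TSS, ranked 546, and 574, 545 and 612 in the replicates. Inside the gene, 8 summits lay in the 33.2 kb intron 1. The leading ones ranked 775 (856, 636 and 1244 in the replicates), 940 (773, 1173 and 777), 1318 (1564, 1105 and 1740) and 1481 (1438, 1380 and 2234). The peak ranked 1318 is also in an exon of lncRNA:CR45940, and the nearest TSS to the peak ranked 940 was that of SmydA-2, 13406 bp away. All 10 nkd peaks overlapped a top-list peak of every replicate, although the weak summit ranked 6935 shares its interval, and so its replicate match, with the promoter peak. For the pathway genes together it was 39 of 69.

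Those 39 peaks make 56.5% (95% Wilson interval 44.8% to 67.6%) that a top-list peak of every replicate overlapped, against 69.9% of the other 7700 IDR peaks (68.9% to 70.9%). Another 23 were in the top lists of 2 replicates and 7 in that of 1. By replicate, 57, 62 and 51 of the 69 were in the top list. In the full lists of 30000 peaks, all 69 were overlapped in every replicate, against 96.7% of the other IDR peaks. For 64 (92.8%) the nearest replicate summit, of any peak, lay within 100 bp in every replicate, against 88.5%. The pathway peaks were somewhat weaker, with a median rank of 4797, against 3874 for the others, and 12 (17.4%) in the strongest 25% of the list, against 25.1%. When the top lists of the replicates were used instead, the median rank of the pathway summits was 4606, 5118 and 3847, which in replicate 3 was above the middle of the list at 3885, so a lower strength was not seen in every replicate. None of the 12 strong peaks ranked beyond 2347 in any replicate. They were chosen by a signal pooled from the same replicates, and the other strong IDR peaks were not read this way. Near the end of the list the ranks rest on small differences, as the last IDR peak and the first pooled peak beyond it both had a signal value of 256.3, against 476.8 for the peak in the middle of the list.

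**Figure D3:**
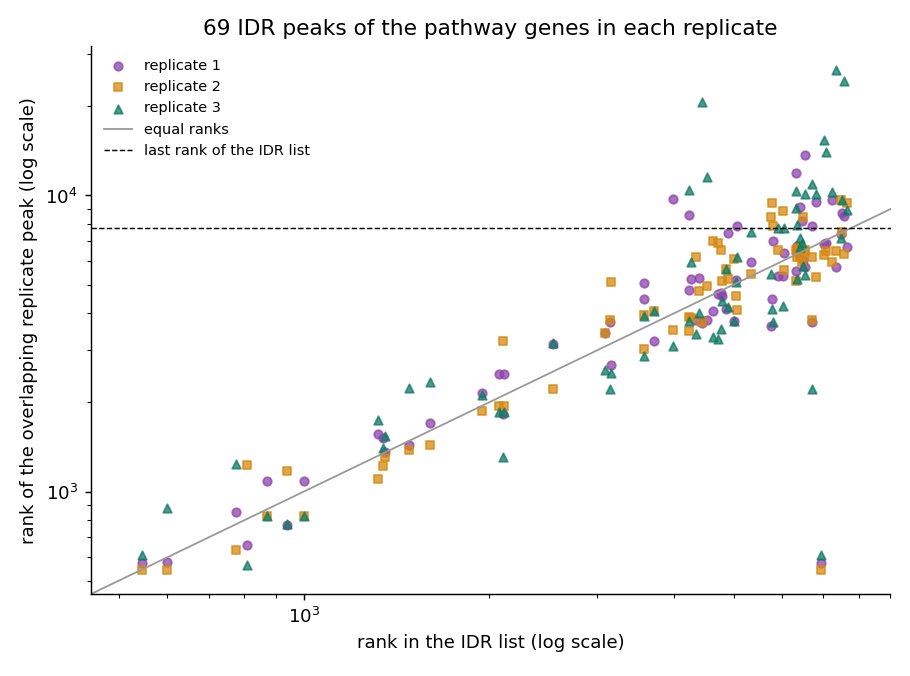
Rank of the overlapping peak in each replicate (vertical axis, log scale) against rank in the IDR list (horizontal axis, log scale) for the 69 peaks of the pathway genes. The solid line marks equal ranks and the dashed line the last rank of the IDR list. The 12 peaks in the strongest 25% of the list stay at or under rank 2347 in every replicate, while weaker peaks scatter across the dashed line, most of all in replicate 3.

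Most of the pathway sites were intronic and over 1 kb from a TSS. Introns held 55 of the 69 summits (79.7%), against 46% of the other IDR summits, but the choice of summits in or near genes itself raises that share. Under the same rule, 50.1% of the other IDR summits in the windows of protein-coding genes were intronic, and 70.3% of those in windows of 30 kb and over. The top lists of the replicates gave 78% ± 3.47 (SD, n = 3), against 49.6% ± 1.14 in all other windows and 69.8% ± 0.255 in those of 30 kb and over. Beside long windows, then, most of the excess was gone, and the share stayed higher in each replicate (77.3%, 81.8% and 75%, against 70.1%, 69.6% and 69.8%). Promoters of any gene held 7 (10.1%), 5 of them of the pathway gene itself, against 17.1% of other summits in windows of 30 kb and over. Intergenic sequence held 4 (5.8%), against 8.78% there, and 3′ untranslated regions held 2 (2.9%), both at pan, against 1.53% of all other IDR summits. Coding exons and 5′ untranslated regions held none, against 0.338% and 1.06%. The median distance to the nearest TSS of any gene was 3003 bp, against 1096 bp for the other IDR peaks. In introns alone the medians were 4768 bp for the pathway peaks and 2388 bp for the others. The distance was over 1 kb for 51 peaks (73.9%), against 52%, and over 5 kb for 28 (40.6%), against 20.5%. Among intronic peaks alone, 83.6% and 47.3% of those of the pathway lay that far, against 73.2% and 29.7% of the others. These distances were not compared at matched intron length. Inside the pathway genes lay 56 of the 69 summits (81.2%), while 29 (42%) were nearest to a TSS of the pathway gene. Of the 13 outside, 6 were inside another gene.

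The windows of 50 bp on either side of the 69 summits held 69.1% A or T on average (SD 8.79 over peaks), and windows of the same width centred 200 bp to either side held 58.5%. For the other IDR peaks it was 67.5% and 57.7%. Summits were richer in A and T than their own flanks at 55 of the 69. In the top lists the pathway summits held 67.4%, 68.4% and 67.8% (67.9 ± 0.49, SD, n = 3), against 66.9 ± 0.881 for whole top lists, so they were slightly higher in each replicate, where the whole lists held 67%, 67.8% and 66%. The median was 74.3% at wg, 72.8% at nkd and 72.3% at fz, 62.4% at the single summit of dsh and 60.4% at Apc, whose 4 summits ran from 51.5% to 71.3%.

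**Figure D4:**
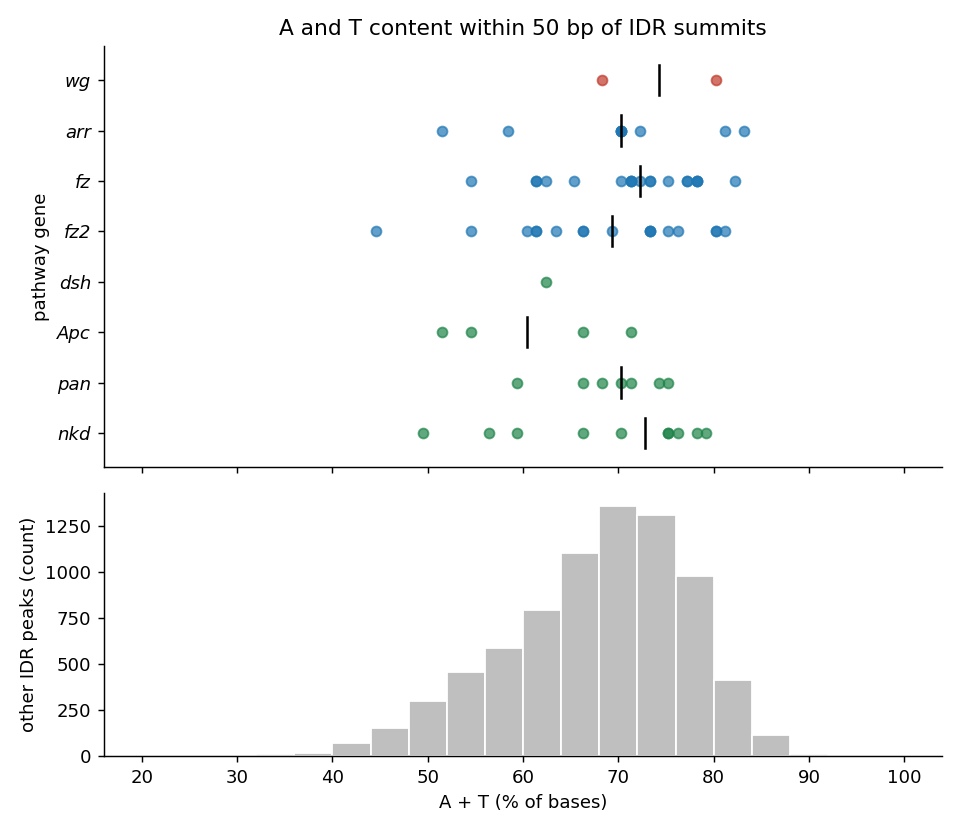
Share of A and T bases (horizontal axis, %) within 50 bp of IDR summits. The upper panel has 1 point per summit for each pathway gene with the median as a black line, and the lower panel is the count of the other 7700 IDR peaks. The pathway summits run from 44.6% to 83.2% and lie within the range of the others.

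Runs of at least 8 A or T bases, the letters in capitals above, were found at 61 of the 69 summits (88.4%), against 55.8% of their flanking windows. Among the other IDR peaks 78% of summits and 52.9% of flanks had one, and among pooled summits outside the IDR list 65.8%. The longest run per window had a median of 11 bases and reached 29 in an intron of fz2, at the peak ranked 3582. The core site of Pangolin itself, searched as CTTTGAT on both strands, was present at 1 of the 69 summits (1.45%), the fz2 peak ranked 5346, and in 2.17% of their flanks, against 2.03% of the other IDR summits. The motif GAGAG, the core of sites of the GAGA factor, likewise searched on both strands, was found at 4 summits (5.8%) and in 15.9% of flanks, against 9.19% and 16.4% for the other IDR peaks. The 3 searches cannot match the same letters in full, and a match is no evidence that a factor binds there.

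A wider list of 38 other pathway genes was read in the same way. Of these, 24 (63.2%) had an IDR summit in the window, against 52% of protein-coding genes, and 10 (26.3%) had one at a promoter, against 15.3%, with 74 summits in all. By window length it was 6 of 14 under 15 kb (42.9%, against 46.4% of all genes of that length), 9 of 14 from 15 to 30 kb (64.3%, against 66%), 7 of 8 from 30 to 60 kb (87.5%, against 76.3%) and 2 of 2 of 60 kb and over (against 76.2%). The shares in the shorter windows, were thus near the background. By role, a summit was present in the window of 3 of 6 other Wnt ligand genes, 5 of 6 other receptor genes, 3 of 7 genes of Wnt secretion and extracellular control, 5 of 8 of the destruction complex and its partners, 5 of 6 nuclear factors and 3 of 5 target genes. These small groups differ in window length, and 8 of the 14 genes without a summit have windows under 15 kb, so the counts give no order of the roles.

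The strongest peak of all stood near Apc2, the paralogue of Apc. It ranked 76, and 79, 80 and 79 in the replicates, but lay 88 bp from the TSS of the neighbour TBC1d7, while the promoter summit of Apc2 itself, 192 bp from a TSS, ranked 2719. In the group of the destruction complex and its partners, promoter summits were also found at gish and sgg. That of gish, a casein kinase gene, ranked 161 (159 bp from a TSS), and 204, 112 and 264 in the replicates. That of sgg, which encodes the fly GSK3 kinase, ranked 577 (200 bp), and 694, 463 and 794 in the replicates. Being listed in this group does not place the product of gish in the complex. The gish peak ranked ahead of the nkd promoter peak (546) and the sgg peak just behind it. Among nuclear factors, the strongest peak, ranked 238, lay in the window of lgs, whose product links Armadillo to Pygopus, but nearest to lncRNA:CR44024. Promoter summits stood at the co-repressor gene gro (rank 1139, 131 bp) and at hyx (rank 7422, 95 bp), which encodes an Armadillo partner. The strongest ligand peak was at Wnt6 (rank 1843, 324 bp from the TSS), and Wnt5 had a promoter summit at rank 6502 (127 bp).

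Among the other receptor genes, fz3 (rank 5283, 199 bp) and drl, a Wnt5 receptor gene (rank 5694, 56 bp), had promoter summits. The strongest receptor peak, ranked 1293, was in the window of dnt, a relative of drl, nearest to CG13086. The glypican genes dlp and dally, whose products bind Wingless outside the cell, had promoter summits at ranks 2395 (199 bp) and 6906 (135 bp). The strongest peak of the extracellular group, ranked 1068, was inside dlp but nearest to a TSS of another gene. None of the 5 target genes had a promoter summit, too few genes to set apart from the 15.3% of protein-coding genes. The strongest peak among them, ranked 1025, lay inside Ubx, a Hox gene. It was 64411 bp from the Ubx TSS and nearest to a TSS of another gene, 14353 bp away.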

How the data were processed

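The 5 deposited peak lists were used as the authors made them: 1 list of 30000 peaks per replicate, 1 of 30000 peaks called on the 3 replicates pooled, and the IDR list of 7769. Per the record files deposited with the samples, the replicate and pooled lists were called against 1 control file that the 3 replicates share, so part of what the lists share may come from that control. Per the labels, coordinates are dm6 and fragments ranged from 200 to 800 bp. Neither the aligner nor the peak caller nor the threshold of the IDR step is named in the sources used here. The authors' signal value per peak has no stated normalization and served only for ranking. The deposited −log10 q-value reaches a ceiling and was not used for ranking, and the deposited summit offset placed each summit. All IDR peaks were the 7769 strongest pooled peaks.

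Gene models came from Ensembl release 115 without transposable elements, and sequence from the RefSeq genome of the same build. Distances are to the nearest TSS of any annotated transcript. A summit was assigned to promoter, 5′ untranslated region, coding exon, 3′ untranslated region, other exon, intron or intergenic sequence, in that order. A replicate match was the strongest replicate peak that overlaps by at least 1 bp, so neighbouring peaks can share a match. With 1 group there was no test between groups and no p-value was computed. Spread is the SD over the top lists of the 3 replicates. The shares of IDR peaks overlapped in the top list of every replicate carry 95% Wilson intervals, and the densities of IDR summits exact Poisson intervals. Other shares carry no interval. The scripts (Python 3.11.15, pandas 2.3.3, scipy 1.17.1) were tested on simulated data.

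The 10 genes and the wider list were chosen with earlier results of these data known. Other genes are named where they hold the strongest peak of a role or a promoter summit in the wider list, where they hold or lie nearest to a peak of the 10 genes, or where they rank among the 3 genes with the most summits. The comparison of intronic shares under the same window rule and the split of the wider list by window length were added after seeing the data. The pooled neighbours Ldaf1 and Mgat2 were named after their values were seen. Alternatives covered the window (gene only, 1 kb, 10 kb), the promoter distance, the peak list, the width of the sequence window and leaving out each replicate. The last kept the IDR peaks that a top-list peak of each other replicate overlapped, without new peak calling.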

Additional observations from a re-analysis of the deposited data

How the results depend on the processing

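The number of pathway genes with a summit in the window, 8 of 10, ran from 6 to 10 over all alternatives, within 1.5 times the main count. It was 6 in the gene alone, 7 within 1 kb, 9 within 10 kb, 7 without replicates 2 or 3, where wg was lost, and 8 without replicate 1. Here a replicate was left out by keeping only the IDR peaks that a top-list peak of each other replicate overlapped. Peaks were not called anew, so this filter can only keep or lower a count, and its falls are not the effect of dropping a replicate from the calling. The number with a promoter summit, 5, was 2 in the stronger 50% of the IDR list, 1 in the strongest 25%, 8 in the pooled list, 3 with support from the top list of every replicate, 3 within 100 bp of a TSS and 3 to 5 when a replicate was left out. Without replicate 1 or replicate 3 it was 3 (arr, fz2 and nkd). The 69 summits became 23, 12, 257 and 39 under the same changes of list and 45 to 50 when a replicate was left out, with 45 without replicate 1 or 2. They became 29 when only summits nearest to a TSS of the gene were counted, an alternative chosen after seeing the data. Stricter lists hold fewer peaks and the pooled list holds more. No paired analysis was possible because there is 1 group. Unknown depth, the shared control and the single pooled stage limit all values, and an absent peak means only that none was called in these lists.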
